A study of Homo sapiens with 6 samples.

Results

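The 42 genes described here encode the machinery that licenses, unwinds and copies DNA in S phase, together with enzymes that supply deoxynucleotides and E2F and cyclin E regulators of the entry into S phase. They were chosen by name: for each gene, the probe sets annotated with that single symbol were taken, and where there were several the one with the highest mean over the 6 arrays was kept. All 42 of 42 were found among 18417 genes measured in this way. Their classes were licensing (ORC1, ORC6, CDC6, CDT1), helicase (MCM2 to MCM7, MCM10, CDC45, GINS1 to GINS4), polymerase (PCNA, RFC1 to RFC5, POLA1, POLA2, PRIM1, POLE, POLE2, POLD1, FEN1, LIG1), nucleotide supply (RRM1, RRM2, TYMS, TK1), E2F and cyclin E (CCNE1, CCNE2, E2F1, E2F2, E2F8) and replication chromatin (UHRF1, CHAF1A, CHAF1B). Only UHRF1 had 2 probe sets, and all 42 genes exceeded a log2 intensity of 6 on every array.

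Each of 6 groups of human cells was represented by 1 Affymetrix expression array. HCT116, a colon cancer line, received siRNA against NRF3 or control siRNA by transient transfection, and so did HCT116-p53KO, a derivative of the same line that is deficient in p53, with RNA taken 48 h later. H1299, a non-small cell lung carcinoma line, carried an NRF3 or a GFP expression plasmid after selection with G-418, as stable lines. NRF3, the product of NFE2L3, is a transcription factor of the CNC family. Whether HCT116-p53KO or the stable lines were single clones, how long HCT116-p53KO had been grown apart from HCT116, and which and how many siRNAs were used, is not stated in the labels. With 1 array per group there was no replicate check within a line and no test of any single comparison, and precision is limited by the number of arrays.

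Levels are RMA log2 intensities, and differences are differences of these values, so that 1 is a doubling. NFE2L3 was at 6.62 with NRF3 siRNA against 8.97 with control siRNA in HCT116, at 7.15 against 8.71 in HCT116-p53KO, and at 10.20 with NRF3 against 8.18 with GFP in H1299. The targeted gene thus moved as labelled in each line, 5.11-fold lower, 2.94-fold lower and 4.06-fold higher. Of 5 measured epithelial markers, EPCAM, CDH1 and ELF3 were between 7.14 and 11.42 on the HCT116-family arrays and between 3.74 and 4.94 on the H1299 arrays, while the keratins KRT8 and KRT18 were at 10.10 or more on all 6 arrays. In H1299 the lung epithelial markers NKX2-1, SFTPB and NAPSA were under 6. The 4 measured mesenchymal markers were unequal there. With NRF3 and with GFP, VIM was at 12.08 and 12.45, and CDH2 at 9.11 and 8.20. In the same order, ZEB1 was at 7.97 and 7.999, and FN1 at 6.30 and 7.07. Of 5 measured colon markers, CDX2 was at 8.39 to 8.69 on the HCT116-family arrays, CDX1 at 7.22 to 7.46 and LGALS4 at 6.67 to 6.98. In H1299, with NRF3 and with GFP, CDX2 was at 6.62 and 6.73, CDX1 at 6.89 and 6.85, and LGALS4 at 5.86 and 6.03. The colon markers VIL1 and CEACAM5 were under 6 on all 6 arrays. The median over all probe sets lay between 6.95 and 7.002 in the HCT116 family and between 6.05 and 6.08 in H1299. The marker levels above carry this offset. Apart from those markers, no level was compared between these sets.

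Before S phase, the origin recognition complex with CDC6 and CDT1 loads the MCM2 to MCM7 ring onto DNA, and in S phase CDC45 and the GINS complex turn that ring into the active helicase. Polymerase alpha with primase starts each strand, the RFC complex loads the PCNA clamp, polymerases epsilon and delta extend the strands, and FEN1 and LIG1 finish the lagging strand. In proliferating cells E2F factors, released from the retinoblastoma protein once cyclin D and cyclin E kinases are active, drive transcription of most of these genes, and p53 opposes this step through the kinase inhibitor encoded by CDKN1A.

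The genes were chosen by name and not by promoter sequence, but most are of a kind that E2F factors drive. A high share of E2F motifs is therefore not independent of the choice and is given as a description. RefSeq promoter windows of GRCh38.p14, from 250 bases before to 50 bases after the annotated start site, were available for 37 of the 42 genes, and none was used for MCM4, MCM5, GINS4, CCNE2 and E2F8. The letters TTTCCCGC, TTTGGCGC, TTTCGCGC or TTTGCCGC were found on either strand in 20 of the 37 (54.1%), against 669 of 10651 expressed genes with a window (6.28%), the 37 included. TTTCCCGC was found in 10 of the 37 genes (27%) against 3.14% of expressed genes, TTTGGCGC in 8 (21.6%) against 1.22%, TTTCGCGC in 6 (16.2%) against 1.11% and TTTGCCGC in 1 (2.7%) against 1.06%. Of the windows with any of these, 14 of 20 (70%) held one within 50 bases of the start site, against 229 of 669 (34.2%). TTTGAA, the core letters of the cell cycle genes homology region typical of mitotic genes, was found in 1 window (RRM1, 2.7%) against 13%, and the CCAAT box in 22 (59.5%) against 41.9%. A window with several matches was counted once, and a match describes the letters of the window and does not show that a factor binds there.

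One promoter per class is shown, from 100 bases before to 30 bases after the start site, read 5′ to 3′ on the gene's own strand, for the named gene of the class with an E2F motif whose siRNA difference varied most between the HCT116 lines. Capitals mark the motif, which reads as GCGGGAAA or GCGCCAAA where TTTCCCGC or TTTGGCGC lies on the opposite strand. The windows are CDT1 at chr16:88803689-88803818 on the plus strand, GINS2 at chr16:85688925-85689054 on the minus strand, POLE2 at chr14:49688185-49688314 on the minus strand, TYMS at chr18:657553-657682 on the plus strand, E2F2 at chr1:23531204-23531333 on the minus strand and UHRF1 at chr19:4909401-4909530 on the plus strand, the last being 1 of 3 annotated windows of UHRF1.
CDT1: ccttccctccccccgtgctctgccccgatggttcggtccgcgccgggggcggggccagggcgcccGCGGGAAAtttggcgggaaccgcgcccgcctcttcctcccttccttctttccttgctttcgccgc
GINS2: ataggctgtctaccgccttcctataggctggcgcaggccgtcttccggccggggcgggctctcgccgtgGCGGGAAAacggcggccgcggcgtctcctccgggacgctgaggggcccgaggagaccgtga
POLE2: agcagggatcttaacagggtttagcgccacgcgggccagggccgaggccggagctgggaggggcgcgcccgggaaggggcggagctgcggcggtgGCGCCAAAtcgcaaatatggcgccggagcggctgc
TYMS: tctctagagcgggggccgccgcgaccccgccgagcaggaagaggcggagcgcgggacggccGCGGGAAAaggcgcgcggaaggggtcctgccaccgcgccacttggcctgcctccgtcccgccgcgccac
E2F2: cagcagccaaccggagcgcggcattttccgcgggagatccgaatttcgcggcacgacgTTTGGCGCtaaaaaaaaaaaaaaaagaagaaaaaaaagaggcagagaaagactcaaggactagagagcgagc
UHRF1: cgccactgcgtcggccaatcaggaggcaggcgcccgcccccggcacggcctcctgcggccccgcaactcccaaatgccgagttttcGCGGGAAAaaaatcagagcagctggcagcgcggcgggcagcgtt
The motif begins 35 bases before the start site in CDT1, 31 in GINS2, 39 in TYMS, 42 in E2F2 and 14 in UHRF1, and in POLE2 it begins 5 bases before the start site and runs across it.

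The first comparison asked how these genes differed after NRF3 siRNA in HCT116. Levels were lower with NRF3 siRNA for 29 of the 42 genes and higher for 13, with a median difference of -0.14 and a range of -0.66 to 0.70. Over all 14034 genes that reached a log2 intensity of 6 on at least 1 of the compared arrays, 48.4% were lower and the median was 0.01. High-intensity genes leaned lower as a whole: of 7758 genes within the range of mean levels that the 42 genes span, 57.2% were lower, with a median of -0.06. By at least 0.32 on the log2 scale, 9 of the 42 were lower and 2 higher, against 17.1% and 13.0% of all genes, and by at least 1.5-fold 2 were lower and 1 higher, against 6.02% and 2.71%. The counts past a fold on the lower side were thus near the share over all genes, and the lean of the group lay in small differences. The median was -0.06 after repeated quantile normalization and -0.07 after loess correction, both with 25 of the 42 lower. RNA from whole cultures was measured, so fewer cells in S phase and less RNA per cell cannot be told apart, here or below.

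Licensing genes had a median difference of -0.14 in HCT116. ORC6, the smallest subunit of the origin recognition complex, was at 7.58 with NRF3 siRNA against 7.88 with control siRNA (-0.30). CDC6, the loading ATPase, was at 10.64 against 10.83 (-0.19). ORC1, the large ATPase subunit of the complex, differed by -0.10 and CDT1, the MCM loading partner of CDC6, by 0.02, so 3 of 4 were lower.

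All 6 subunits of the MCM2 to MCM7 ring were lower in HCT116, by -0.02 in MCM7 to -0.45 in MCM5, although after repeated quantile normalization MCM3, and after loess correction MCM3 and MCM7, were slightly higher. MCM5 was at 10.36 with NRF3 siRNA against 10.81 with control siRNA, and MCM2 was at 9.83 against 10.16 (-0.34). MCM4 differed by -0.32, MCM6 by -0.20 and MCM3 by -0.05. The factors that turn the ring into the active helicase did not all follow it in direction. MCM10, which helps to activate the helicase, differed by -0.21, and CDC45 by 0.10. Of the GINS subunits, GINS2 was lower (-0.30) and GINS1 (0.06), GINS3 (0.20) and GINS4 (0.18) were higher.

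Polymerase genes had a median of -0.10 in HCT116, with 9 of 14 lower. RFC4, a subunit of the clamp loader, differed most, at 10.39 with NRF3 siRNA against 11.05 with control siRNA, which is 1.58-fold lower. POLE2, the second subunit of polymerase epsilon, was at 9.34 against 9.81 (-0.47). Both belong to complexes whose other subunits differed less. RFC1, the large subunit of the clamp loader, differed by -0.37, RFC5 by -0.19, RFC2 by -0.04 and RFC3 by 0.03, and POLE, the catalytic subunit of polymerase epsilon, by 0.04. In polymerase alpha, the catalytic POLA1 differed by -0.29, its partner POLA2 by -0.21 and the primase subunit PRIM1 by 0.06. The flap nuclease FEN1 (-0.12), the ligase LIG1 (-0.08), the clamp PCNA (0.03) and the catalytic subunit of polymerase delta, POLD1 (0.00), differed little.

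Nucleotide supply and cyclin E genes split within pairs of related genes. RRM1, the large subunit of ribonucleotide reductase, was at 9.51 with NRF3 siRNA against 10.14 with control siRNA (1.54-fold lower), whereas RRM2, its small subunit, was at 10.99 against 10.53 (0.45). TK1, the salvage kinase for thymidine, was at 11.06 against 11.53 (-0.47), and TYMS, which makes thymidylate anew, was at 11.48 against 11.28 (0.19). Cyclin E1 and cyclin E2, alternative partners of CDK2, also lay on opposite sides of 0. CCNE1 was at 9.58 against 9.98 (-0.40), and CCNE2 was at 10.21 against 9.51, 1.62-fold higher and the only one of the 42 higher by 1.5-fold. The activator E2F1 differed by -0.26, the activator E2F2 by -0.18 and the atypical repressor E2F8 by -0.07.

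In the replication chromatin class all 3 genes were lower in HCT116, although CHAF1A was slightly higher after repeated quantile normalization (0.05) and after loess correction (0.04). UHRF1, which brings DNA methyltransferase to newly copied DNA, was at 10.06 with NRF3 siRNA against 10.47 with control siRNA (-0.41). Its probe sets disagreed, since the dimmer of its 2 probe sets was at 6.70 against 6.51, a difference of 0.19. CHAF1B, a subunit of the chromatin assembly factor CAF-1, was at 9.27 against 9.43 (-0.16), and the large subunit CHAF1A differed by -0.02.

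**Figure D1:**
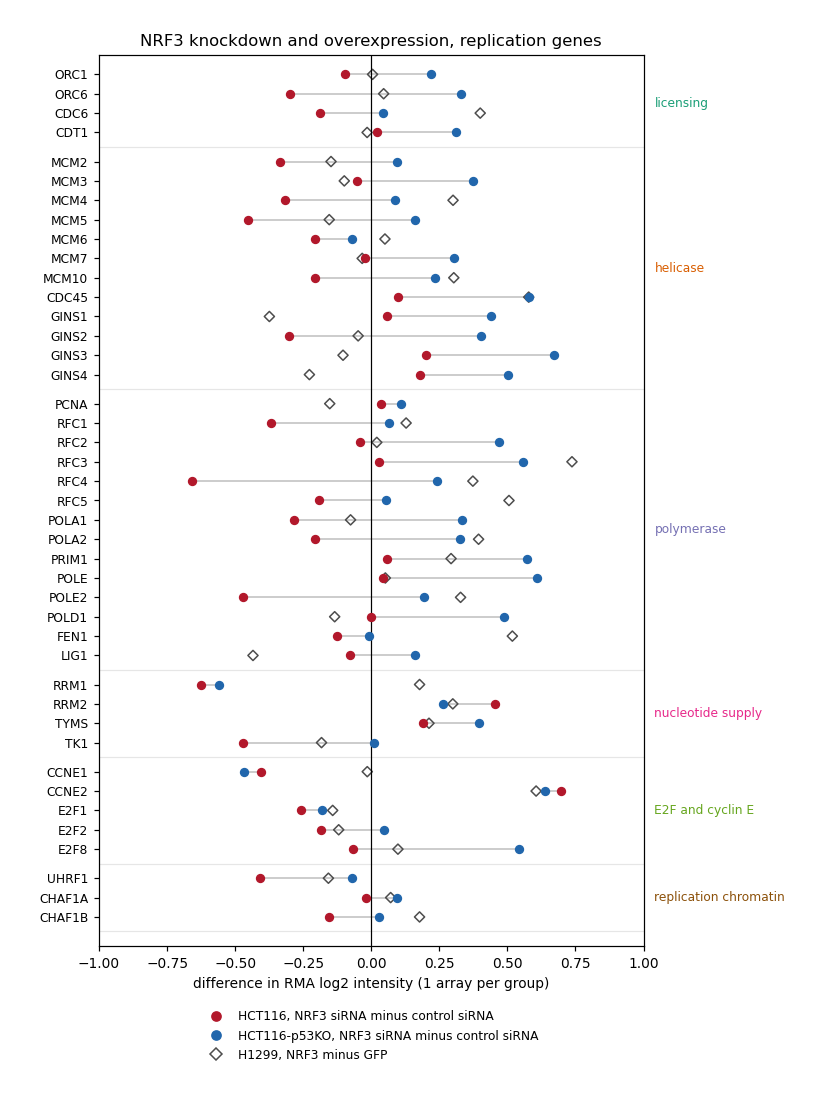
Difference in RMA log2 intensity for each of the 42 genes, grouped by class, with 1 array per group. Red points are NRF3 siRNA minus control siRNA in HCT116, blue points the same in HCT116-p53KO and open diamonds NRF3 minus GFP in H1299. The blue point lies to the right of the red point for 39 genes, the exceptions being RRM2, CCNE1 and CCNE2.

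In HCT116-p53KO, NRF3 siRNA went with higher levels of most of these genes. Levels were higher for 36 of the 42 and lower for 6, with a median difference of 0.24 and a range of -0.56 to 0.67. Over all 13680 genes tested in this line 50.5% were higher and the median was 0.00, and within the level range of the 42 genes 55.8% were higher, with a median of 0.04. By at least 0.32, 17 of the 42 were higher and 2 lower, against 13.7% and 9.18% of all genes. By at least 1.5-fold 3 were higher and 0 lower, against 3.63% and 2.38%. The count past 0.32 on the higher side thus lay above the share over all genes. The 3 genes past 1.5-fold were too few to be set against that share.

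All 4 licensing genes were higher in HCT116-p53KO. ORC6 was at 8.62 with NRF3 siRNA against 8.29 with control siRNA (0.33), and CDT1 was at 9.48 against 9.16 (0.31). ORC1 differed by 0.22 and CDC6 by 0.04.

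Helicase genes had a median of 0.34 in HCT116-p53KO, with 11 of 12 higher. GINS3 was at 10.10 with NRF3 siRNA against 9.43 with control siRNA, the highest difference of the 42 and 1.59-fold. CDC45 was at 9.80 against 9.22 (0.58). All 4 GINS subunits were higher, by 0.40 in GINS2 to 0.67 in GINS3, with a median of 0.47. The MCM ring differed less, with a median of 0.13: MCM3 (0.37) and MCM7 (0.30) were the highest and MCM6 (-0.07) the only one lower.

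Polymerase genes had a median of 0.28 in HCT116-p53KO, with 13 of 14 higher. POLE was at 10.30 with NRF3 siRNA against 9.69 with control siRNA (1.53-fold), and PRIM1 was at 9.96 against 9.39 (0.57). All 5 RFC subunits were higher, by 0.05 in RFC5 to 0.56 in RFC3. POLD1 differed by 0.49, POLA1 by 0.33 and POLA2 by 0.33, while PCNA (0.11) and FEN1 (-0.01) differed little.

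The subunits of ribonucleotide reductase and the cyclin E genes were split in HCT116-p53KO as in HCT116. RRM1 was at 9.98 with NRF3 siRNA against 10.54 with control siRNA (-0.56), and RRM2 was at 11.26 against 11.00 (0.26). TYMS was at 11.73 against 11.33 (0.40), and TK1 was level at 11.64 against 11.63. CCNE1 was at 9.85 against 10.32 (-0.47), and CCNE2 was at 10.02 against 9.39, or 1.56-fold higher. E2F8, which restrains E2F transcription late in S phase, was at 9.79 against 9.24 (0.54), and E2F1 differed by -0.18 and E2F2 by 0.05. UHRF1 (-0.07), CHAF1A (0.09) and CHAF1B (0.03) differed little.

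**Figure D2:**
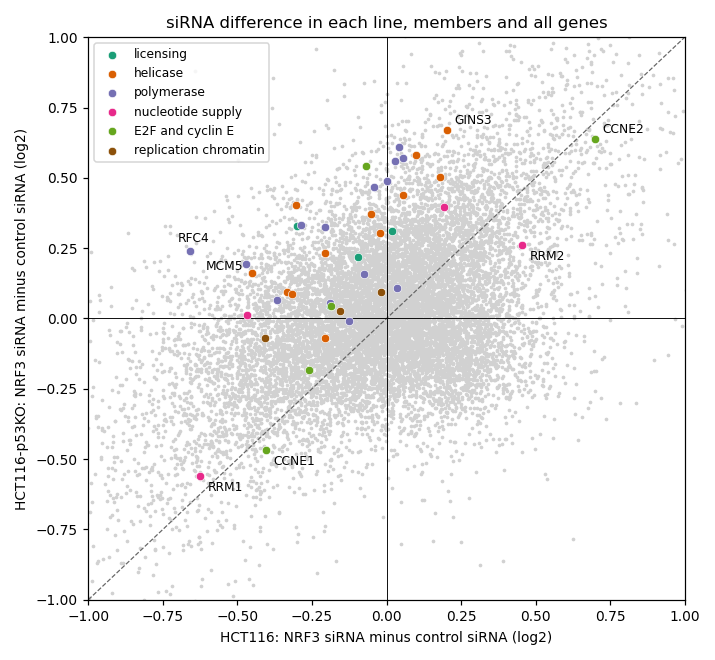
NRF3 siRNA minus control siRNA (log2) in HCT116 on the horizontal axis and in HCT116-p53KO on the vertical axis. Coloured points are the 42 genes by class and grey points all genes, of which those beyond 1 on either axis fall outside the plot. Points above the dashed line of equal differences are genes whose difference was more negative in HCT116, and 23 of the 42 lie at the upper left, lower in HCT116 and higher in HCT116-p53KO.

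Set side by side, the lines differed in sign for 23 of the 42 genes, which were lower in HCT116 and higher in HCT116-p53KO, a pattern shown by 19% of 13566 genes. Of these 23, MCM3, MCM7, RFC2, E2F8 and CHAF1A in HCT116 and TK1 and CHAF1B in HCT116-p53KO lay close enough to 0 to change sign under at least 1 rescaling, by repeated quantile normalization or loess correction. Another 13 were higher in both lines (31.5% of genes), namely CDT1, CDC45, GINS1, GINS3, GINS4, PCNA, RFC3, PRIM1, POLE, POLD1, RRM2, TYMS and CCNE2. Another 6 were lower in both (30.2%), namely MCM6, FEN1, RRM1, CCNE1, E2F1 and UHRF1, and 0 showed the reverse sign pattern (19.2%). Across the 42 genes the siRNA differences in the 2 lines, which share no array, had a Pearson r of 0.63 and a Spearman rho of 0.66, against 0.535 and 0.419 across 13566 genes. These values are across genes, which are not independent replicates. Genes high or low within the group in one line thus tended to be so in the other, around different medians.

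This shift is measured by subtracting the siRNA difference in HCT116-p53KO from the one in HCT116. It was below 0 for 39 of the 42 genes, with a median of -0.39 and a range of -0.90 to 0.19. Over all 13566 genes 56.5% were below 0 and the median was -0.05, and within the level range of the 42 genes 69.0% were below 0, with a median of -0.12. By at least 0.32, 25 of the 42 were lower and 0 higher, against 17.4% and 11.5% of all genes. By at least 1.5-fold 7 were lower and 0 higher, against 4.18% and 2.15%. No test of this difference was possible with 1 array per group.

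All 12 helicase genes were below 0 in this measure, with a median of -0.43, also under both rescalings. The 14 polymerase genes were below 0 as well, with a median of -0.51, except that PCNA was at 0.02 after repeated quantile normalization and 0.04 after loess correction. RFC4 differed most (-0.90), being 1.58-fold lower with siRNA in HCT116 and 1.18-fold higher in HCT116-p53KO. GINS2 (-0.71), POLE2 (-0.67), ORC6 (-0.63), POLA1 (-0.62), E2F8 (-0.61) and MCM5 (-0.61) were the other genes past 1.5-fold. All 4 licensing genes were below 0 (median -0.30), with ORC6 lower in HCT116 (-0.30) and higher in HCT116-p53KO (0.33). In the replication chromatin class all 3 were below 0 (median -0.18), although the value for UHRF1 changed sign when its probe sets were averaged and that for CHAF1A after loess correction. The other classes shifted less: nucleotide supply had a median of -0.14, with TK1 (-0.48) and TYMS (-0.21) the most negative, and E2F and cyclin E had a median of -0.08, which was 0.02 after repeated quantile normalization and 0.01 after loess correction. RRM2 (0.19), CCNE1 (0.06) and CCNE2 (0.06) were the 3 genes above 0. RRM1 (-0.07), PCNA (-0.07) and E2F1 (-0.08) were also close to equal in the lines, and all 3 were above 0 after either rescaling.

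**Figure D3:**
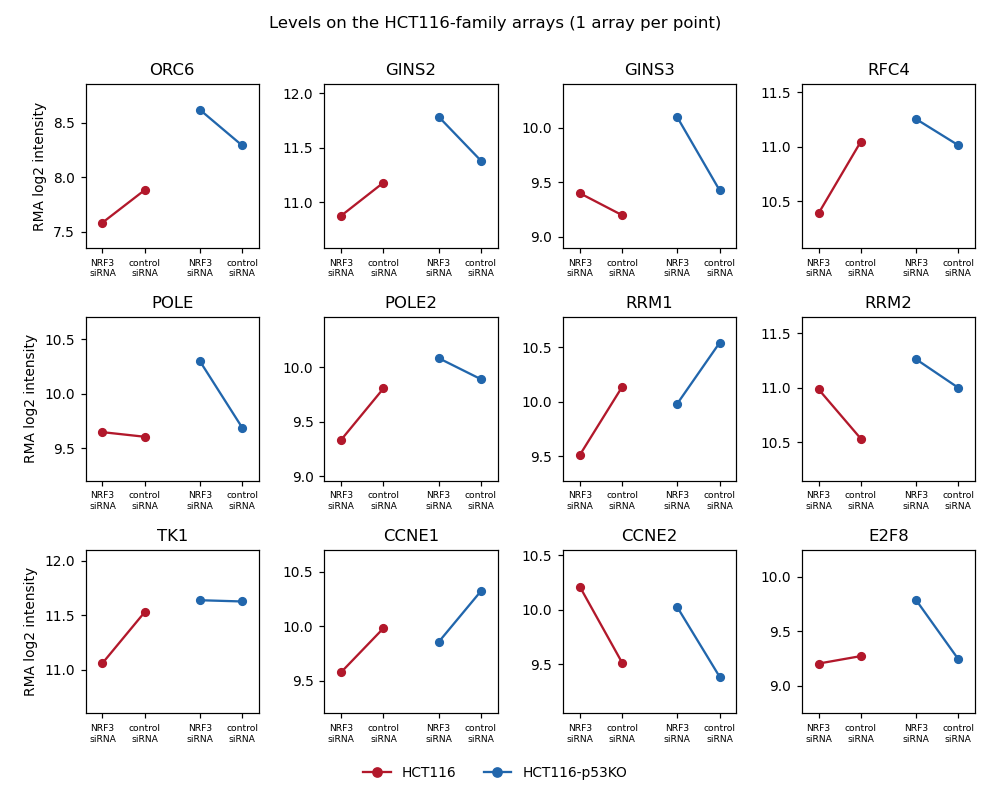
RMA log2 intensity of 12 genes on the 4 HCT116-family arrays, 1 array per point, with a vertical range of equal height in every panel. Red points are HCT116 and blue points HCT116-p53KO, each with NRF3 siRNA on the left and control siRNA on the right. RFC4 and GINS2 slope in opposite directions in the lines, while RRM1, CCNE1 and CCNE2 slope the same way in both.

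Ranking the 4 HCT116-family arrays within each gene showed where the shift lay. HCT116-p53KO with NRF3 siRNA was the highest array for 34 of the 42 genes, against 29.4% of 14148 genes and 37.4% of genes in their level range. HCT116 with NRF3 siRNA was the lowest array for 28 of the 42, against 31.7% and 41.3%. Median levels of the 42 genes were 9.58 with NRF3 siRNA against 9.80 with control siRNA in HCT116, and 10.05 against 9.94 in HCT116-p53KO. Both NRF3 siRNA arrays thus lay outside the pair of control arrays, on opposite sides.

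Other cell cycle genes moved with this contrast, and their part in it was not tested. CDKN1A, the inhibitor of cyclin E kinase, was at 9.98 with NRF3 siRNA against 9.82 with control siRNA in HCT116, and at 8.07 against 8.76 in HCT116-p53KO. Of 22 measured p53 targets, 20 were above 0 in the HCT116 minus HCT116-p53KO measure, with a median of 0.29. With NRF3 siRNA 17 of the 22 were higher in HCT116 (median 0.30). In HCT116-p53KO 11 were higher and 11 lower (median -0.006), so by its median the list did not share the fall of CDKN1A there. By at least 1.5-fold 3 of the 22 were lower and 1 higher in that line, against 2.38% and 3.63% of all genes. The 3 lower were CDKN1A, GDF15 (-1.18) and TP53INP1 (-1.61), and the 1 higher was PLK2 (0.66). All 25 measured genes of G2 and mitosis were below 0 in the HCT116 minus HCT116-p53KO measure, with a median of -0.62. Their medians in the single lines were -0.75 in HCT116 and -0.14 in HCT116-p53KO. The mitotic list was therefore lower in both lines by its median, unlike the replication genes, whose median was above 0 in HCT116-p53KO. NFE2L3 itself was lowered by a larger factor in HCT116 than in HCT116-p53KO, as given above.

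**Figure D4:**
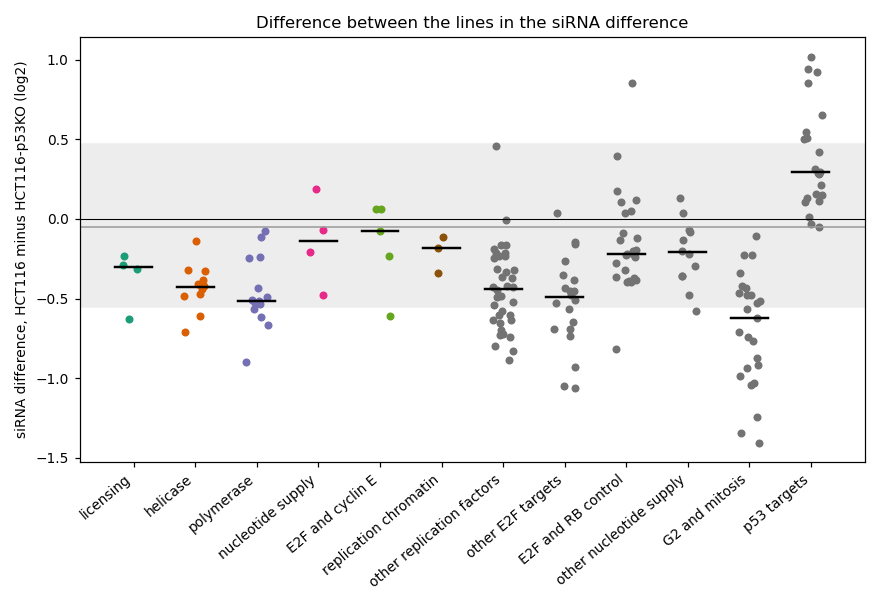
Difference between the lines, HCT116 minus HCT116-p53KO, in the siRNA difference (log2) for each gene, by class of the 42 genes (coloured) and for 6 other lists (grey), with 1 array per group. Black bars are medians, the grey line the median of all genes and the pale band their 5th to 95th percentile, from -0.55 to 0.47. All 12 helicase genes lie below 0, as do all 25 of G2 and mitosis, and 20 of 22 p53 targets lie above 0.

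Treating the lines as the only replication, limma with cell line as a block was fitted to the 4 HCT116-family arrays over 14148 genes. It called 1398 at an adjusted p of 0.05 or less, 4.45% of genes higher and 5.43% lower with NRF3 siRNA, and 2 of the 42 genes. CCNE2 rose by 0.67 ± 0.16 (SE; limma, Benjamini-Hochberg adjusted p = 0.001128), higher in both lines. RRM1 fell by 0.59 ± 0.16 (SE; limma, Benjamini-Hochberg adjusted p = 0.00524), lower in both lines. GINS3 (0.44, limma adjusted p = 0.065) and CCNE1 (-0.44, limma adjusted p = 0.0654) came next without passing the threshold. By limma, 8 of the 42 genes had an unadjusted p under 0.05, against 2885 of all 14148 genes, a similar share. The fit had 1 residual degree of freedom and an SE common to all genes, which does not measure the spread of a single gene between the lines. Both calls were lost with the prior of a fit to all 6 arrays, where the limma adjusted p was 0.1609 for CCNE2 and 0.193 for RRM1, and with no prior, where it was 0.6338 for both. Over the other alternatives it ranged from 1.966e-05 to 0.0275 for CCNE2 and from 0.0001302 to 0.03848 for RRM1.

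Without NRF3 siRNA, the lines themselves were compared through their control arrays, which also enter the differences above. Levels were higher in HCT116-p53KO than in HCT116 for 34 of the 42 genes, with a median of 0.16 and a range of -0.13 to 0.47, against 51.4% of 13827 genes and a median of 0.01. Of the 42, 0 were higher and 0 lower by at least 1.5-fold, against 0.868% and 3.45% of all genes. RRM2 was at 11.00 in HCT116-p53KO against 10.53 in HCT116 (0.47), and RRM1 at 10.54 against 10.14 (0.40). ORC6 (0.41), CDC6 (0.33), CHAF1B (0.43), CHAF1A (0.25), CCNE1 (0.34) and MCM4 (0.33) were also higher. GINS4 (0.29), POLA2 (0.23), POLD1 (0.21) and E2F2 (0.18) lay on the same side of 0, and all 4 licensing, 4 nucleotide supply and 3 chromatin genes were above 0, with TYMS level after repeated quantile normalization. CCNE2 (-0.13), PCNA (-0.13) and MCM7 (-0.13) were the lowest. Beside this, p53 targets had a median of -0.60 with 20 of 22 lower, and CDKN1A differed by -1.06.

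Between the NRF3 siRNA arrays the gap between the lines was wider. HCT116-p53KO was higher than HCT116 for 40 of the 42 genes, with a median of 0.57, against 52.8% of 14007 genes and 66.7% of genes in the same level range. By at least 1.5-fold, 19 of the 42 were higher, against 5.6% of all genes. ORC6 (1.04), GINS2 (0.91), RFC4 (0.87), POLA1 (0.79) and POLA2 (0.76) led. CCNE2 (-0.19) and PCNA (-0.05) were the 2 genes below 0. By construction each of these values equals the control array difference minus the HCT116 minus HCT116-p53KO siRNA measure, so it is another view of the same 4 arrays.

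In H1299, stable NRF3 expression went with no common direction in these genes. Levels were higher with NRF3 than with GFP for 24 of the 42 and lower for 18, with a median of 0.05 and a range of -0.43 to 0.74, against 49.4% higher of 11304 genes and a median of 0.00. By at least 1.5-fold 2 were higher and 0 lower, against 4.82% and 4.2% of all genes. With loess correction the median was 0.01 and 21 were higher. RFC3 was at 9.81 with NRF3 against 9.08 with GFP (1.67-fold), and CCNE2 at 8.28 against 7.68 (1.52-fold). CCNE2 was thus higher in all 3 lines, under knockdown in both HCT116 lines and under overexpression in H1299.

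Whole complexes lay on opposite sides of 0 in H1299. All 5 RFC subunits were higher with NRF3 (4 of 5 after either rescaling, with RFC2 then lower), with a median of 0.37 and values of 0.51 in RFC5, 0.37 in RFC4, 0.13 in RFC1 and 0.02 in RFC2 beside RFC3. All 4 GINS subunits were lower, with a median of -0.17. GINS1 was at 9.67 with NRF3 against 10.05 with GFP (-0.37), and GINS4 differed by -0.23. CDC45, their partner in the helicase, was at 9.88 against 9.31 (0.58). FEN1 was at 9.29 against 8.77 (0.52), while LIG1, which acts after it on the lagging strand, was at 7.39 against 7.83 (-0.43).

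The other licensing, MCM, nucleotide and regulator genes in H1299 were mixed in direction. CDC6 was at 8.34 with NRF3 against 7.94 with GFP (0.40), and ORC6 differed by 0.05. MCM4 (0.30) and MCM10 (0.30) were higher, and MCM5 (-0.15), MCM2 (-0.15) and MCM3 (-0.10) lower. RRM2 was at 9.15 against 8.85 (0.30), TYMS differed by 0.21, RRM1 by 0.18 and TK1 by -0.18. E2F1 (-0.14), UHRF1 (-0.16) and CHAF1B (0.18) completed the leading genes of their classes. For UHRF1 the dimmer probe set went the other way in H1299, at 5.47 with NRF3 against 5.28 with GFP (0.19). Across the 42 genes the H1299 differences had a Pearson r of 0.15 with those in HCT116 and 0.125 with those in HCT116-p53KO, as a description with no array shared.

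The wider pathway was read from lists of genes outside the 42. Of 36 other replication factors, 32 were lower with NRF3 siRNA in HCT116 (median -0.23) and 24 were higher in HCT116-p53KO (median 0.10), and 35 were below 0 in the HCT116 minus HCT116-p53KO measure (median -0.44). CDC7, the kinase that fires licensed origins, was at 7.06 with NRF3 siRNA against 7.11 with control siRNA in HCT116 and at 8.14 against 7.29 in HCT116-p53KO. CLSPN, a checkpoint adaptor at forks, was at 8.18 against 8.89 in HCT116 and at 9.003 against 8.88 in HCT116-p53KO. Both therefore had a lower difference in HCT116, one through the HCT116-p53KO pair and the other through the HCT116 pair. In H1299, 22 of 35 were higher (median 0.10).

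Other E2F targets resembled the 42 genes in direction. Of 20 measured, 18 were lower in HCT116 (median -0.46) and 14 higher in HCT116-p53KO (median 0.17), and 19 were below 0 in the difference of the lines (median -0.49). HELLS, a chromatin remodeller, was at 8.50 with NRF3 siRNA against 9.002 with control siRNA in HCT116 and at 9.38 against 8.81 in HCT116-p53KO. RAD51AP1, a recombination factor, was at 7.41 against 8.38 and at 8.34 against 8.26. Both were lower with NRF3 siRNA in HCT116 and higher with it in HCT116-p53KO.

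In the E2F and RB control list 16 of 25 were lower in HCT116 (median -0.19) and 15 lower in HCT116-p53KO (median -0.12). In H1299 21 of the 25 were higher (median 0.25). E2F5, a repressor-type E2F, was lower in all 3 lines, at 7.75 with NRF3 siRNA against 8.65 with control siRNA in HCT116, 7.74 against 8.42 in HCT116-p53KO and 8.09 with NRF3 against 9.06 with GFP in H1299. TFDP1, the dimer partner of the E2Fs, was higher in both knockdowns (0.38 and 0.57) and in H1299 (0.25). LIN9, a subunit of the MuvB core of the DREAM complex, differed by -0.86 in HCT116 and -0.05 in HCT116-p53KO. SKP2, the F-box protein that marks CDK inhibitors for degradation, was 2.02-fold higher with NRF3 in H1299, and the cell cycle phosphatase CDC25A was 1.76-fold and cyclin D1 (CCND1) 1.84-fold higher there.

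Among 12 measured genes of other nucleotide supply, CAD, which starts pyrimidine synthesis, was higher with NRF3 siRNA in HCT116 (0.69) and in HCT116-p53KO (0.91). DTYMK, the thymidylate kinase, was lower in both (-0.97 and -0.39). The list as a whole had medians of -0.03 in HCT116 (0.01 after repeated quantile normalization) and 0.10 in HCT116-p53KO, and 10 of 12 were below 0 in the difference of the lines (median -0.21).

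Finally, the siRNA differences were set beside the promoter motifs shown above. In the HCT116 minus HCT116-p53KO measure, the 20 genes with an E2F motif had a median of -0.36 and all 20 were below 0, and the 17 without had a median of -0.43 with 15 below 0. Genes outside the 42 had a median of -0.15 with a motif (649 genes, 72.4% below 0) and -0.06 without (9965 genes, 57.9%). Within the 42 the motif thus did not go with a larger shift. In H1299 the genes with a motif had a median of -0.06, with 13 of 20 lower under NRF3, and those without had a median of 0.18, with 3 of 17 lower. Genes outside the 42 had medians of 0.03 with and 0.00 without the motif in H1299, close to each other.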

How the data were processed

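Total RNA (100 ng) of each group was labelled and hybridised to a whole-transcript array, per the labels' protocols. The authors deposited log2 intensities of 33297 probe sets. The submitters' processing notes name RMA and Affymetrix Expression Console, with no version. RMA pulls the distributions of arrays together, so only shifts relative to other genes can be read. The arrays that were normalized as one set are not stated in the notes. The array's annotation table gave 1 gene symbol for 19460 probe sets, several for 1754 and none listed for 12083. Single-symbol probe sets gave 18417 genes, by the highest mean over 6 arrays.

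Differences of log2 values were taken where at least 1 array compared reached 6, in Python 3.11.15 with pandas 2.3.3. limma 3.58.1 in R 4.3.3 was fitted to the 4 HCT116-family arrays with cell line as a block, two-sided, with Benjamini-Hochberg adjustment at 0.05. In the main fit its p-values rest on how far the lines differed in the siRNA effect pooled over all genes. They do not measure that spread for a single gene. The fit was also run on simulated data with equal variance for all genes and the same effect in both lines. That setting checks the code and not the calls, since it holds no effects that differ between the lines. Alternatives were no filter, a filter of 7, size thresholds of 0.32 (log2) and 2-fold in place of 1.5-fold, the mean of probe sets, the mean of the 42 genes, repeated quantile normalization, loess correction (span 0.4) and other limma priors.

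The genes, lists and tests were chosen with earlier results of these data known. Each class is described with up to 2 genes of largest difference per comparison given with every array's level, and each other list with up to 4. The gene knocked out in HCT116-p53KO is not analysed here.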

Additional observations from a re-analysis of the deposited data

Results flagged for a closer look

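The median siRNA difference of the 42 genes lay below 0 in HCT116 and above 0 in HCT116-p53KO. Without rescaling, the same held for each class. This opposite sign drew attention, and with 1 array per group the difference between the lines was not tested. Over all 42 genes the medians were -0.140 in HCT116 and 0.237 in HCT116-p53KO. Helicase genes had medians of -0.128 in HCT116 and 0.338 in HCT116-p53KO. Licensing genes had -0.143 in HCT116 and 0.266 in HCT116-p53KO, and polymerase genes -0.101 in HCT116 and 0.284 in HCT116-p53KO. The gap was narrower for nucleotide supply, at -0.139 in HCT116 and 0.137 in HCT116-p53KO, and for E2F and cyclin E, at -0.185 in HCT116 and 0.0455 in HCT116-p53KO. For replication chromatin it was -0.156 in HCT116 and 0.0283 in HCT116-p53KO. The last 2 medians in HCT116-p53KO were close to 0. That of replication chromatin was -0.0007 after repeated quantile normalization and -0.02 after loess correction. A class of 3 to 5 genes has a median that 1 gene can move. The medians in HCT116 were small as well. After repeated quantile normalization and loess correction they were -0.06 and -0.07 over the 42 genes. In the same order they were -0.03 and -0.04 for polymerase genes, and -0.06 under both for helicase genes. All genes in the level range of the 42 had a median of -0.06 in HCT116 without rescaling.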

How the results depend on the processing

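Of the 5 medians of the 42 genes, each under 6 alternatives, only that of the HCT116 minus HCT116-p53KO measure changed by more than 0.1. It was -0.29 after loess correction against -0.39, with 35 of the 42 below 0, and 36 after repeated quantile normalization. For the smaller medians a change within 0.1 was still large. After repeated quantile normalization the HCT116 median was -0.06 against -0.14. The H1299 median was then -0.002 against 0.05, with 21 of the 42 higher and 21 lower. The count of genes called by limma moved from 1398 to 859 with repeated quantile normalization, 751 with loess correction, 0 with a prior taken from all 6 arrays (1822 genes at an unadjusted p under 0.05 by limma) and 3 with no prior. Fewer degrees of freedom and other variances enter the last 2 settings by construction, and the fit to all 6 arrays takes NRF3 expression in H1299 as the reverse of NRF3 siRNA. Which of these moved the counts was not tested, nor was the cause of the other shifts. The remaining limma counts lay between 1046 and 1845. Counts of the 42 genes past a fold changed with the threshold, 8 of 10 at a difference of 0.32 (log2) and 5 of 10 at 2-fold. UHRF1 rests on 1 of 2 disagreeing probe sets. No paired analysis was possible because the groups share only 1 replicate number, so that the sole pairing is that of siRNA arrays within a cell line, which the limma fit already holds as its block, and no replicate could be left out. Without replicates, small differences near 0 have no error estimate of their own.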
